A study of Homo sapiens with 9 samples.

Results

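The second siRNA against the zinc transporter ZIP7 was compared directly with the first in MDA-MB-231 cells, an established triple-negative breast cancer line. The comparison took the 3 libraries whose labels name ZIP7 siRNA_2 (called siZIP7_2 here) and the 3 whose labels name ZIP7 siRNA_1 (siZIP7_1), which are 6 of the 9 libraries of the series. The other 3 came from cells given a non-targeting control siRNA (siNC) and are used to show on which side of the control each siRNA lay. All cells received an siRNA by reverse transfection and were taken 96 h later, in DMEM with serum, so transfection is common to every group and no untransfected cells were analysed here. The study's methods give different suppliers for the ZIP7 siRNAs, and MDA-MB-231 is a single line. Reads assigned to genes numbered 24153785 in the shallowest of the 9 libraries and 30454419 in the deepest. The study describes transfection in triplicates, but nothing in the labels says that libraries of a group came from separate cultures. The p-values therefore measure the spread between these libraries, which may be technical.

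ZIP7, the protein of SLC39A7, releases zinc from the endoplasmic reticulum (ER) into the cytosol. An siRNA is a short RNA duplex whose guide strand leads Argonaute to messengers that match it. Independent siRNAs against a gene share the target but not the sequence, so comparing them shows which pathways and cell states differ between siRNAs meant for the same target. The siRNA sequences were not analysed here, and the siRNA used, its supplier and the depth of its knockdown cannot be told apart in this design. In bulk libraries, fewer cells in a state and less RNA per cell in that state cannot be told apart either.

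SLC39A7 (chr6:33200445-33204439, plus strand, GRCh38) was reduced in every siZIP7 library. It was read at 321, 343 and 322 CPM with siNC, where CPM scales the count of a gene to the size of its library, at 35.4, 32.9 and 38.6 CPM with siZIP7_1 and at 20.5, 19.5 and 17.6 CPM with siZIP7_2. The siZIP7_2 libraries lay below all siZIP7_1 libraries. The log2 difference, siZIP7_2 minus siZIP7_1, was -0.89 (standard error 0.0663, adjusted p = 4.89e-13 in the quasi-likelihood test of edgeR, with Benjamini-Hochberg correction over all genes), so siZIP7_1 left 1.86 times as much target messenger as siZIP7_2. In all that follows, log2 differences and calls of higher or lower are for siZIP7_2 against siZIP7_1, and a gene is called at an adjusted p under 0.05 in that test.

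The 2 siRNAs differed over most of the transcriptome. Of 16761 genes tested, 13187 were called (78.7%), 6387 of them higher (38.1%) and 6800 lower (40.6%). Because this share is so high, a second rule also asked for a difference of at least 2-fold, which 5213 genes passed (31.1%), 2822 higher (16.8%) and 2391 lower (14.3%). At 4-fold, 1225 genes were higher and 495 lower. The ranges of CPM in the groups were apart for 79.7% of genes. Against siNC, 34.8% of genes were higher and 35.9% lower with siZIP7_1, and 38.5% were higher and 39.3% lower with siZIP7_2. The median log2 difference over all genes was -0.02, with quartiles of -0.59 and 0.62. On the first principal component, which carried 61.4% of the variance, the siZIP7_1 libraries lay at -69.5 to -66.2, the siNC libraries at -23.7 to -21.5 and the siZIP7_2 libraries at 89.3 to 91.2, so the control lay between the siRNAs on this axis. On the second component, with 31.3% of the variance, the siNC libraries lay at 63.7 to 66.6, apart from siZIP7_1 at -48.2 to -43.8 and siZIP7_2 at -19.9 to -17.8, which were both on the other side of 0. Genes named for a list are its anchors and extremes by a set rule, but RELA, CXCL2, CXCL3, CXCL5, TIMP2, TNC, AURKB, HIST1H1C, HIST1H2BJ, FARSB, EPSTI1, AKR1B1, MITF, ALOX5AP and PLCE1-AS1 were chosen after their values were seen. Other genes overlap at least 25% of the exons of IER3, PLAU, TGFB2, CCNE2, HIST1H2BE, NSA2, FTH1, PPIB, DDIT4 and BCL2L1, so the values of these are uncertain. Shares in parentheses after the counts of a list are of its tested genes, in the order of the counts, and are to be read against the 38.1% higher and 40.6% lower over all genes. Counts by at least 2-fold are to be read against the 16.8% higher and 14.3% lower over all genes. The plot of level against difference for every gene shows where the lists described next fall in this background.

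**Figure D1:**
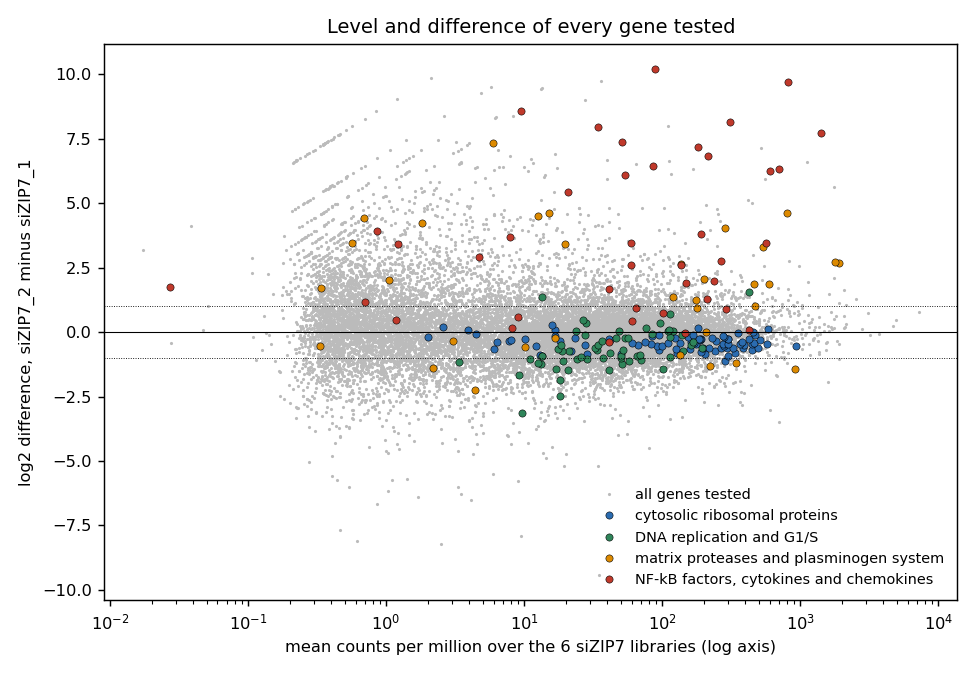
Mean CPM over the 6 siZIP7 libraries (log axis) against the log2 difference, siZIP7_2 minus siZIP7_1, for the 16761 genes tested (grey), with 4 gene lists in colour and dotted lines at 2-fold. Genes of the NF-kB list reach a log2 difference of 10.19 at levels where few other genes lie, while the ribosomal protein genes form a narrow band just below 0.

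By list median, the widest separation was among genes of the NF-kB pathway. The lists were chosen with earlier results of these data known, so this rank describes the lists and is no test. NF-kB factors are held in the cytoplasm by inhibitor proteins and, once released, drive genes for cytokines, chemokines, adhesion molecules and survival proteins, as well as their own inhibitors. In breast cancer cells these genes are known for inflammatory and invasive states. Of the 40 tested genes of this list, 34 were higher and 1 was lower with siZIP7_2, and 29 were higher by at least 2-fold, with a median log2 difference of 3.17 against -0.02 over all genes. The share called higher was 85.0% of this list and 38.1% of all genes. The 2-fold rule was passed by 72.5% of the list and 31.1% of all genes. The medians against siNC were -1.03 for siZIP7_1 and 2.51 for siZIP7_2.

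Among the factors, RELA, which encodes the p65 subunit, was not called, with a log2 difference of -0.05 that was 0.03 with upper-quartile scaling, and means of 149 ± 2.68 (SD, n = 3) and 144 ± 7.66 CPM. RELB, a subunit of the noncanonical branch, was read at 20.4, 17.9 and 20.0 CPM with siZIP7_1 and at 64.0, 60.4 and 62.6 CPM with siZIP7_2, a difference of 1.68. NFKB2, its usual partner, rose by 1.29 and NFKBIA, the main inhibitor, by 2.59. The messengers of the noncanonical subunits and of the inhibitor were thus higher without a call for RELA. NFKBIA was read at 40.0, 38.2 and 38.1 CPM with siZIP7_1, close to the siNC libraries at 46.2, 40.2 and 41.3 CPM, and at 247, 231 and 224 CPM with siZIP7_2. TNFAIP3, a feedback inhibitor, rose by 0.92 from a level with siZIP7_1 that was already above siNC.

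Cytokine genes had the largest log2 differences of the list. IL1B, the messenger of interleukin-1 beta, was read at 21.3, 18.4 and 21.8 CPM with siNC, at 1.89, 2.16 and 1.82 CPM with siZIP7_1 and at 1736, 1559 and 1615 CPM with siZIP7_2. The 3 groups were fully apart, with siZIP7_1 below and siZIP7_2 above the control, and the siRNAs differed 835-fold (log2 9.71, standard error 0.0879, adjusted p = 3.94e-34, edgeR's quasi-likelihood test). CSF3, which encodes the granulocyte colony-stimulating factor, was the protein-coding gene with the largest rise among genes at 5 CPM or more. It was read at 186, 171 and 176 CPM with siZIP7_2 against 2 to 6 counts per library with siZIP7_1, so the size of its fitted log2 difference of 10.19 rests on few counts. CSF2, a granulocyte-macrophage growth factor, went from 3.79, 3.92 and 3.39 CPM to 455, 394 and 423 CPM, with 34.7, 28.3 and 34.4 CPM in siNC. Each of these cytokines was thus lower than control with the first siRNA and higher than control with the second. The same order held for IL1A at 7.39, IL6 at 6.10 and IL11 at 6.31 on the log2 scale. LIF, another cytokine of the IL6 family, had the smaller difference of 1.92. TNF was at 0.146 CPM or below in every siZIP7_1 and siNC library and at 21.8, 17.2 and 17.5 CPM with siZIP7_2.

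Chemokines that attract neutrophils followed the cytokines. CXCL8 was read at 152, 133 and 171 CPM with siNC, at 12.2, 13.2 and 14.3 CPM with siZIP7_1 and at 3179, 2459 and 2767 CPM with siZIP7_2, a 212-fold difference. CXCL1 differed 282-fold, from 2.48, 2.06 and 2.04 CPM to 653, 580 and 618 CPM. CCL20, which attracts lymphocytes and dendritic cells, differed by 7.94 on the log2 scale. Adhesion and survival genes were higher too. ICAM1, the adhesion molecule for leukocytes, was at 93.8, 93.6 and 94.6 CPM with siZIP7_1 and 1107, 956 and 1050 CPM with siZIP7_2, and here siZIP7_1 too was above siNC. BIRC3, an inhibitor of cell death, differed by 3.82. The single gene of the list that was lower was IL7R, the interleukin-7 receptor, at -0.38. BCL2A1, a survival gene of the BCL2 family, had at most 1 count in each siZIP7_1 library and 10.7, 12.4 and 11.5 CPM with siZIP7_2, which is at least 113-fold higher when siZIP7_1 is set at 3 counts per library.

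**Figure D2:**
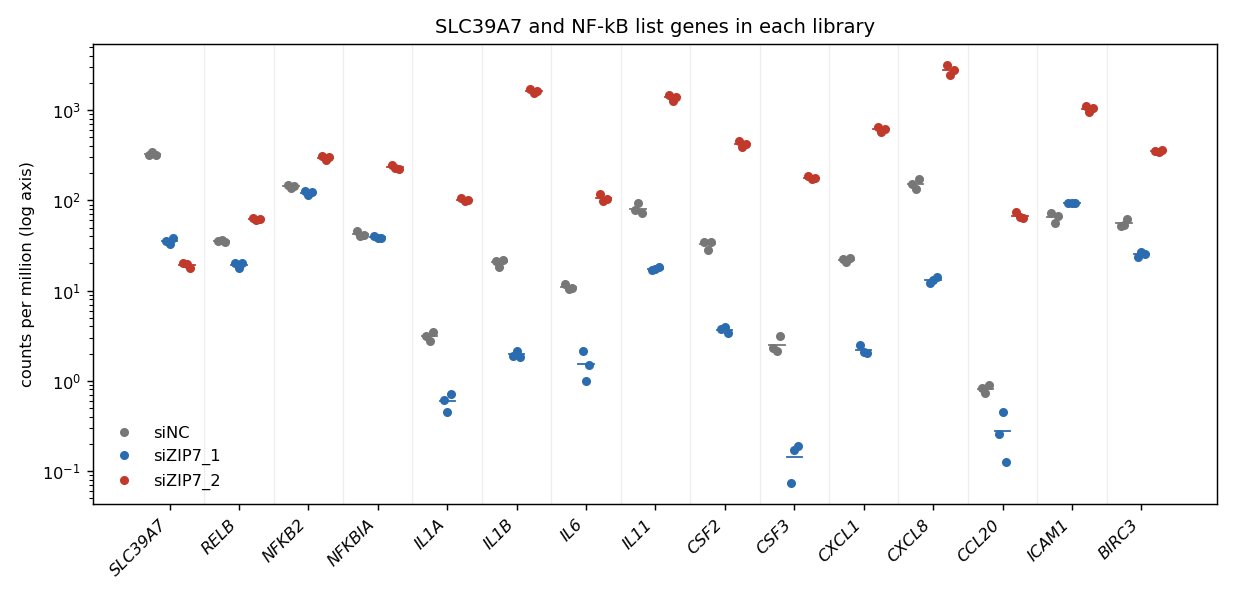
CPM (log axis) of SLC39A7 and 14 genes of the NF-kB list in each of the 9 libraries, as points, with the group mean as a bar. SLC39A7 is low with both ZIP7 siRNAs, while IL1B, CSF2, CXCL1 and CXCL8 lie below siNC with siZIP7_1 and above it with siZIP7_2.

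The bases before the start of these chemokine genes are shown because members of the cluster on chromosome 4 moved together and share a stretch of NF-kB type. The 9 letters GGAATTTCC, or GGAAATTCC on the other strand, were searched in the 250 bases before each RefSeq start (GRCh38.p14). They were present for 10 of the 32 tested genes of the list that matched a RefSeq promoter, against 0.538% of the 11157 tested genes that matched. The list holds genes known as NF-kB targets, so this share describes the list and is no test. The motif was chosen after the promoters were read, and a match marks letters, not a bound site. The 120 bases before the start are given 5′ to 3′ on the strand of the gene, with the 9 letters in capitals.
CXCL1, chr4:73869273-73869392, plus strand: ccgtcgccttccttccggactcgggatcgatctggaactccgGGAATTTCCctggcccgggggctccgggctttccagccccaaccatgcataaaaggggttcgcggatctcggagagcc
CXCL2, chr4:74099196-74099315, minus strand: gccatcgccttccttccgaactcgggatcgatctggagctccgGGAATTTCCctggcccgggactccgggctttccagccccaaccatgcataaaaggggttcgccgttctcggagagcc
CXCL3, chr4:74038690-74038809, minus strand: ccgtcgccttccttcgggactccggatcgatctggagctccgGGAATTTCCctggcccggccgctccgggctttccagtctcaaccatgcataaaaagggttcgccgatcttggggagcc
CXCL5, chr4:73998678-73998797, minus strand: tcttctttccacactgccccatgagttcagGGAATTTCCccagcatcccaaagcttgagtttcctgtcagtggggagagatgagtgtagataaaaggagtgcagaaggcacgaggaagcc
CXCL8, chr4:73740449-73740568, plus strand: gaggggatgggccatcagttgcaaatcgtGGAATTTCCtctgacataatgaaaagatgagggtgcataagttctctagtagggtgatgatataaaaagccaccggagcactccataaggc
NFKBIA, chr14:35404750-35404869, minus strand: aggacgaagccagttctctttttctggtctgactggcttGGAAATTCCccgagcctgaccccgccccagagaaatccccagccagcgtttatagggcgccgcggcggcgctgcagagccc

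The letters began 78 bases before the start in CXCL1 and CXCL3, 77 in CXCL2, 90 in CXCL5, 91 in CXCL8 and 81 in NFKBIA. The log2 differences beside them were 8.14 for CXCL1, 6.45 for CXCL2, 5.45 for CXCL3, 3.93 for CXCL5, 7.72 for CXCL8 and 2.59 for NFKBIA. CXCL1, CXCL2 and CXCL3 are close copies of each other, so reads may be split between them. CXCL5 was low throughout, at 1.44, 1.91 and 1.46 CPM with siZIP7_2 and 0.206 CPM or less with siZIP7_1. IL6, BIRC3 and TNFAIP3 lack these exact letters in the window but hold a match to the kappa-B consensus, a longer pattern that allows other letters and that CXCL8 and ICAM1 do not match, as did 16 of the 32 matched genes of the list and 8.14% of the tested genes that matched.

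Early response genes were also mostly higher with siZIP7_2. Immediate early genes such as FOS and EGR1 answer growth signals within minutes and encode transcription factors, of which the AP-1 proteins are the best known. Of 32 tested genes of this list, 25 were higher and 5 lower (78.1% and 15.6%), with a median of 0.68, and 12 were higher by at least 2-fold. In either direction 40.6% of the list passed the 2-fold rule, against 31.1% of all genes. IER3, a stress-induced survival gene, was at 67.6, 68.4 and 70.8 CPM with siZIP7_1 and 3444, 3427 and 3416 CPM with siZIP7_2, around the siNC libraries at 410, 407 and 416 CPM. EGR1 rose by 2.86, FOS by 2.37 and JUN by 1.52. NR4A1, an orphan nuclear receptor, was the largest exception at -1.44.

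Genes that ERK signalling induces, feedback inhibitors included, were higher for 23 of 28 and lower for 4 (82.1% and 14.3%), with a median of 1.07. The SPRY4 inhibitor rose by 1.47 and the transcription factor ETV4 by 1.21, while the phosphatase DUSP4 was at -0.33. In the EGF family, 10 of 16 were higher and 5 lower (62.5% and 31.2%). HBEGF, a membrane-anchored ligand, was at 27.5, 25.4 and 26.8 CPM with siZIP7_1, 208, 211 and 204 CPM with siNC and 432, 384 and 427 CPM with siZIP7_2. The ligands EREG and TGFA rose by 1.68 and 1.67, but AREG fell by 1.33. ERBB3, a receptor that binds neuregulin, fell by 2.28, from 28.8, 30.0 and 31.4 CPM to 6.48, 6.18 and 5.88 CPM, and both siRNAs were above siNC at 2.40, 2.28 and 2.42 CPM. The receptor EGFR rose by 0.66.

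Proteases that cut the extracellular matrix formed the list with the second largest median outside the marker checks. Matrix metalloproteases and the plasminogen activators break down collagen and fibrin, and TIMP proteins hold the metalloproteases back. Of 33 tested genes, 22 were higher and 8 lower (66.7% and 24.2%), 20 and 5 of them by at least 2-fold, with a median of 1.85. In either direction 75.8% of the list passed the 2-fold rule, against 31.1% of all genes. MMP14, a membrane-bound collagenase, was read at 471, 466 and 464 CPM with siZIP7_1, at 1348, 1413 and 1374 CPM with siNC and at 3140, 2918 and 3170 CPM with siZIP7_2. PLAU, the urokinase, went from 254, 265 and 252 CPM to 973, 822 and 978 CPM, near the siNC libraries at 1049, 1061 and 1017 CPM. Its receptor PLAUR differed 16.2-fold. MMP9, a gelatinase, had no more than 3 counts in any siZIP7_1 library and 11.8, 11.8 and 11.7 CPM with siZIP7_2, at least 115-fold higher. MMP1 rose with both siRNAs against siNC and by a further 1.85 with the second.

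The inhibitors did not move as a block. TIMP1 rose by 3.32, whereas TIMP2 fell by 1.43, from 1320, 1346 and 1306 CPM to 487, 477 and 512 CPM. The siNC libraries had 440, 440 and 443 CPM of TIMP2, below both siRNAs but much nearer to siZIP7_2. MMP11, the protease with the largest fall among genes at 5 CPM or more, was at -2.23.

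Adhesion and matrix genes gave a similar division. Integrins are paired receptors for matrix proteins, and 14 of 19 tested were higher and 4 lower (73.7% and 21.1%), with a median of 1.04. ITGA2, a collagen receptor subunit, was at 218, 219 and 207 CPM with siZIP7_1 and 1441, 1393 and 1501 CPM with siZIP7_2. ITGA10 rose by 5.95, whereas ITGB4, the beta subunit that binds laminin in hemidesmosomes, fell by 2.04 from 81.1, 77.2 and 76.6 CPM to 20.2, 18.9 and 18.1 CPM. ITGA6, its partner, rose by 1.04, so the subunits of this pair moved in opposite directions. Of 57 tested collagens, laminins and matrix proteins, 37 were higher and 15 lower (64.9% and 26.3%). TNC, the matrix glycoprotein tenascin-C, was at 17.6, 19.8 and 15.9 CPM with siZIP7_1, 438, 426 and 434 CPM with siNC and 1150, 1005 and 1130 CPM with siZIP7_2. COL8A1 fell by 2.83, from 672, 682 and 648 CPM to 100, 87.8 and 93.3 CPM. In the hyaluronan list, 8 of 11 were higher and 3 lower (72.7% and 27.3%). The receptor CD44 rose by 1.95, and the synthase HAS2 was below siNC with both siRNAs, at 1.13, 1.65 and 1.10 CPM and 10.6, 11.5 and 7.81 CPM against 70.2, 82.6 and 77.2 CPM.

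MDA-MB-231 cells are mesenchymal in appearance but keep the keratins of simple epithelium. Over 42 tested epithelial genes, 16 were higher and 21 lower (38.1% and 50%), with a median of -0.24. By at least 2-fold, 14 were higher and 12 lower, so 61.9% passed that rule, against 31.1% of all genes. Most of the genes named next were lower. KRT8, a keratin of simple epithelium, was at 501, 502 and 491 CPM with siZIP7_1, 204, 206 and 201 CPM with siNC and 181, 188 and 182 CPM with siZIP7_2. KRT18, KRT19, the desmosome gene DSP and the plakophilin PKP2 were lower by 0.97, 1.51, 1.35 and 2.92 on the log2 scale. KRT15, a keratin of basal cells, was at 1.93, 1.27 and 1.88 CPM with siZIP7_1 and 47.4, 49.0 and 47.3 CPM with siZIP7_2, a rise of 4.82. CDH1, which encodes E-cadherin, fell by 2.08 at low levels, from 4.52, 3.98 and 4.05 CPM to 1.28, 0.790 and 0.923 CPM.

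Of 28 tested mesenchymal genes and factors of the epithelial to mesenchymal transition, 21 were higher and 6 lower (75% and 21.4%), with a median of 0.94. ZEB1, a repressor of epithelial genes, was at 42.8, 41.9 and 43.2 CPM with siZIP7_1 and at 120, 122 and 123 CPM with siZIP7_2, beside 114, 113 and 121 CPM with siNC. VIM, the intermediate filament of mesenchymal cells, was below siNC with both siRNAs and differed between them by only 0.11 (adjusted p = 0.0486, edgeR). That call was lost in edgeR without the low-count filter (adjusted p = 0.309) and with the replicate number as a block (adjusted p = 0.0549). It was also lost when any of 7 single libraries was left out. FN1 fell by 0.52 and SNAI2 by 0.60, so the list did not rise as a whole. The heat map by library shows epithelial, integrin, matrix and protease genes, and none of the mesenchymal genes named here. Among those it shows, TNC, ITGA10, PLAUR and MMP14 lay on opposite sides of the control with siZIP7_1 and siZIP7_2.

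**Figure D3:**
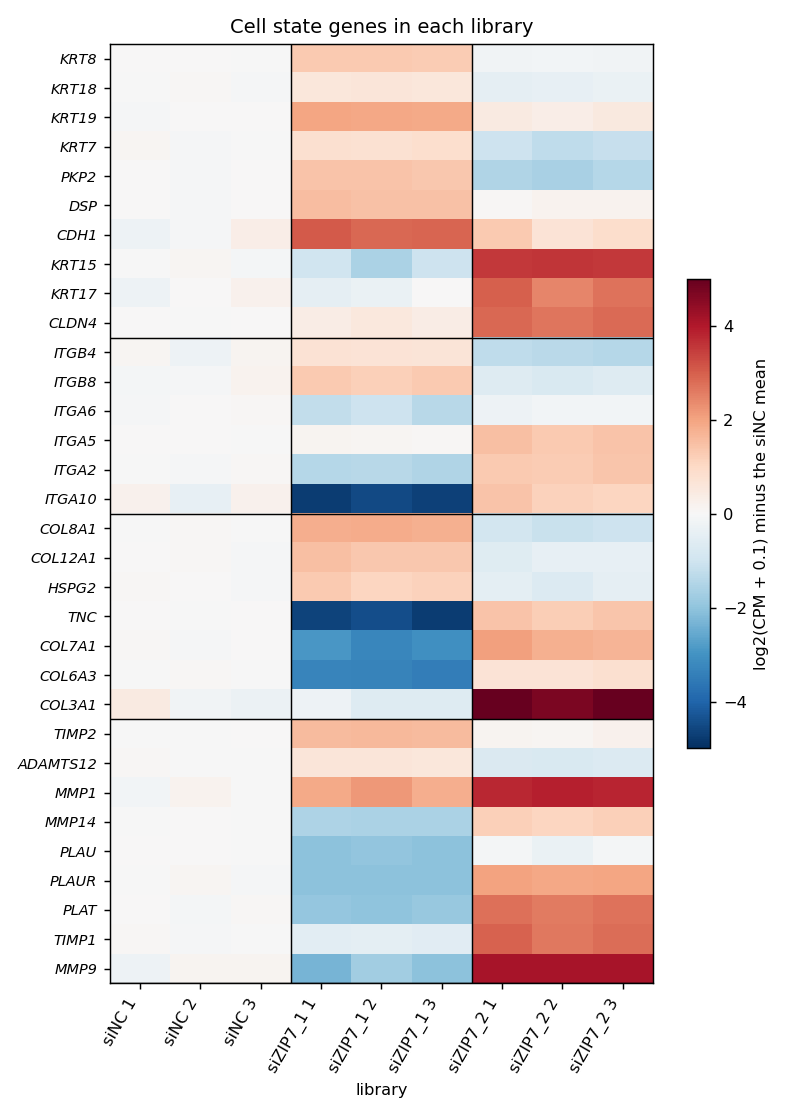
Log2(CPM + 0.1) of epithelial, integrin, matrix and protease genes in each library (columns), minus the siNC mean of the gene, in colours that stop at 5 in either direction, with groups parted by vertical lines. KRT8, KRT19, TIMP2 and COL8A1 are highest with siZIP7_1, while TNC, ITGA10, PLAUR and MMP14 are below siNC with siZIP7_1 and above it with siZIP7_2.

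Other developmental signalling lists held large single differences. TGF-beta and BMP proteins signal through SMAD factors and are countered by secreted antagonists. Of 41 tested genes, 28 were higher and 12 lower (68.3% and 29.3%). TGFB1 rose by 2.20 and SMAD7, a feedback inhibitor, by 2.70, while TGFB2 fell by 1.85 and the activin antagonist FST by 3.31, from 249, 253 and 259 CPM to 24.7, 26.5 and 25.4 CPM. Of 25 tested Notch genes, 18 were higher and 5 lower (72% and 20%). LFNG, which modifies Notch receptors, was at 5.32, 4.36 and 4.80 CPM with siZIP7_1 and 147, 125 and 139 CPM with siZIP7_2. The Notch target HES1 rose by 2.46 and the ligand JAG1 by 1.49. Among 34 tested Wnt genes, 15 were higher and 11 lower (44.1% and 32.4%), near the shares of all genes. The Wnt antagonist DKK1 fell by 2.70, from 602, 661 and 624 CPM to 91.1, 99.8 and 98.8 CPM. Targets of YAP and TAZ, coactivators that respond to cell tension, did not move together. CYR61 rose by 1.27, CTGF rose by 0.98 and ANKRD1 fell by 1.94, from 2481, 2575 and 2535 CPM to 595, 711 and 669 CPM, which is near siNC.

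Cell cycle genes were described by phase, and the difference between the replication and mitosis lists was not tested. DNA replication needs the MCM helicase, its loading factors, the clamp PCNA and cyclin E, all of which are made at the entry to S phase. Of 60 tested genes of this list, 46 were lower and 7 higher (76.7% and 11.7%) with siZIP7_2, with a median of -0.72, the lowest outside the marker checks given at the end. The medians against siNC were -0.69 for siZIP7_1 and -1.38 for siZIP7_2. PCNA was at 146, 152 and 145 CPM with siZIP7_1 and 49.9, 58.4 and 53.6 CPM with siZIP7_2, and MCM2 fell by 1.08. CCNE2, a cyclin E gene, went from 29.8, 34.4 and 28.7 CPM to 4.70, 6.22 and 5.69 CPM. E2F2, a transcription factor of S phase genes, had the largest fall, at -3.12. The largest exception was E2F7, a repressor of E2F targets that E2F factors induce, at 213, 219 and 211 CPM with siZIP7_1 and 590, 646 and 652 CPM with siZIP7_2, a rise of 1.55. CDC6 was higher by 0.37 and MCM5 by 0.17, and the call of MCM5 was lost without the low-count filter (adjusted p = 0.068, edgeR).

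Mitosis genes did not share this direction. Of 71 tested, 32 were higher and 22 lower, with a median of 0.04, shares (45.1% and 31.0%) not far from those of all genes. CCNB1, the cyclin of mitotic entry, rose by 0.59, whereas CDC25B, a phosphatase that activates the mitotic kinase, fell by 1.70 and AURKB by 1.47. MKI67 was at 320, 318 and 317 CPM with siZIP7_1 and 379, 505 and 458 CPM with siZIP7_2, and all of these were below the siNC libraries at 607, 604 and 527 CPM. CDKN1A, which encodes the cell cycle inhibitor p21, was at 24.9, 24.1 and 24.3 CPM with siZIP7_1, 110, 120 and 109 CPM with siNC and 281, 255 and 273 CPM with siZIP7_2, an 11-fold difference. BAX, a death gene that is also a p53 target, moved the other way, from 129, 132 and 134 CPM to 35.4, 32.4 and 32.3 CPM. CCND1, cyclin D1, rose by 0.61 and stayed below siNC with both siRNAs.

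Histone cluster genes were read higher with siZIP7_2 in 22 of 29 tested, and lower in 1 (75.9% and 3.45%), with a median of 1.09. Messengers of these genes mostly end without a poly(A) tail, so their level in a library also depends on how RNA was selected, which the sources used here do not give. HIST1H1C, a linker histone, went from 76.0, 58.6 and 82.3 CPM to 232, 193 and 218 CPM, and HIST1H2BJ rose by 2.24. HIST1H2BE was the exception at -1.06. Only 29 of the 71 members passed the filter on low counts, which a gene can pass through the group where it is high. The share called higher may therefore partly reflect which members passed.

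Each list described here for making protein held more lower than higher genes with siZIP7_2, and the steps were small for cytosolic ribosomal proteins. Of 84 tested cytosolic ribosomal protein genes, 72 were lower and 3 higher, with a median of -0.41, and 1 passed the 2-fold rule. The share called lower was 85.7% of this list and 40.6% of all genes. The medians against siNC were -0.41 for siZIP7_1 and -0.84 for siZIP7_2. RPS6 was at 316, 350 and 337 CPM with siZIP7_1 and 219, 234 and 233 CPM with siZIP7_2, and RPL27 fell by 1.13. Ribosomal protein genes have many processed copies in the genome, which can take part of their reads. Of 113 tested genes of ribosome biogenesis, 66 were lower and 24 higher (58.4% and 21.2%). FBL, the methyltransferase of ribosomal RNA, fell by 1.27, and NCL, nucleolin, by 0.43. NSA2 was the largest exception, at 4.88, 4.6 and 4.86 CPM with siZIP7_1 and 39.0, 39.9 and 40.8 CPM with siZIP7_2, beside 47.2, 46.9 and 46.3 CPM with siNC. Cytosolic tRNA synthetases charge tRNAs with amino acids, and 16 of 23 were lower and 4 higher (69.6% and 17.4%). DARS and FARSB, for aspartate and phenylalanine, fell by 1.67 each, whereas SARS, for serine, rose by 1.40.

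Respiratory chain genes were described by the genome that holds them, and the difference between the genomes was not tested. Of 76 tested subunits from nuclear genes, 41 were lower (53.9%, against 40.6% of all genes) and 20 higher (26.3%, against 38.1%), with a median of -0.22. Of the 13 subunits of the mitochondrial genome, 11 were higher (84.6%) and none was lower, with a median of 0.22. MT-CO1, a subunit of cytochrome oxidase, was at 2336, 2294 and 2281 CPM with siZIP7_1 and 4194, 3863 and 3517 CPM with siZIP7_2. The share of all counted reads on the mitochondrial genome moved with this, from 2.73% ± 0.0767 to 3.59% ± 0.309 (SD, n = 3 each). An exact permutation test of that share gave p = 0.1, the smallest that 3 against 3 libraries allow, and its part in the other differences was not tested.

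**Figure D4:**
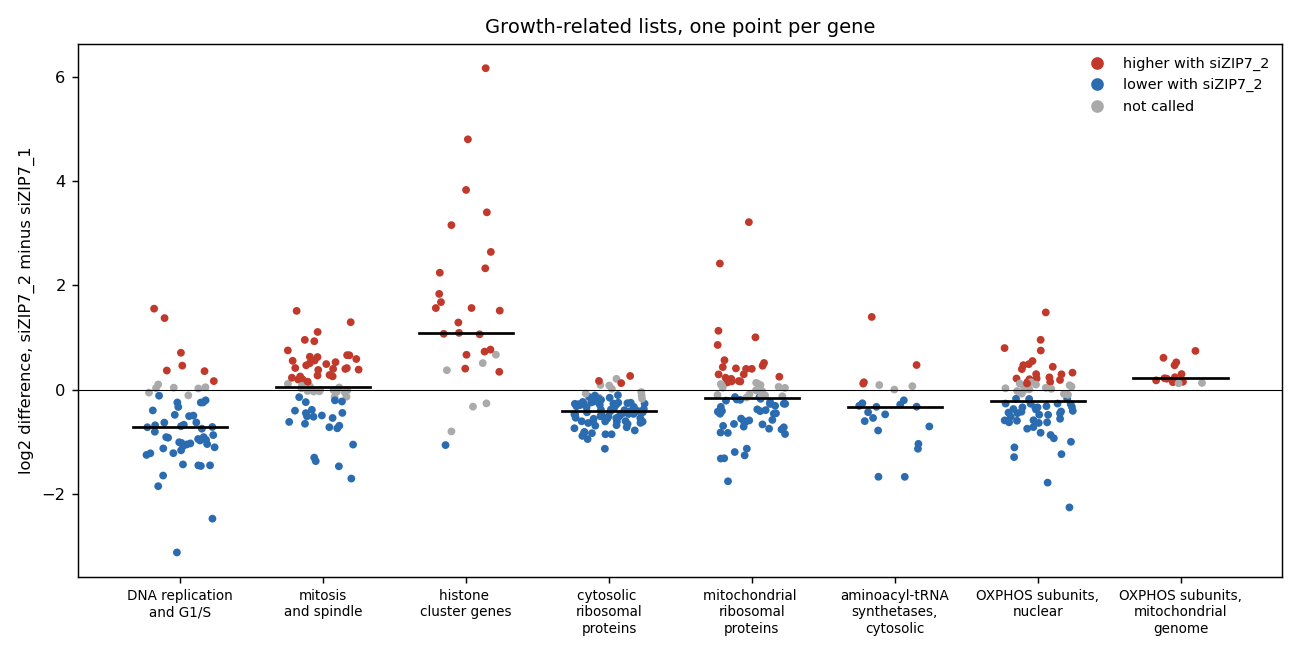
Log2 difference, siZIP7_2 minus siZIP7_1, of every tested gene (points) in 8 lists of growth, with the list median as a bar and the colour giving the call. DNA replication genes centre on -0.72 and ribosomal protein genes on -0.41, whereas mitosis genes centre on 0.04 and histone genes on 1.09.

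MHC class II genes lay below the control with both siRNAs, and further below with the first. MHC class II molecules show peptides to helper T cells, and CIITA is the coactivator on which their transcription depends. Of 17 tested genes of this list, 14 were higher with siZIP7_2 than with siZIP7_1 and 2 lower (82.4% and 11.8%). The medians against siNC were -3.12 for siZIP7_1 and -1.37 for siZIP7_2. CIITA was at 36.2, 36.3 and 35.3 CPM with siNC, 3.42, 2.75 and 3.67 CPM with siZIP7_1 and 17.7, 19.1 and 16.9 CPM with siZIP7_2. HLA-DRA, the alpha chain of the class II molecule HLA-DR, was at 131, 118 and 136, then 10.5, 11.8 and 10.6, then 31.7, 33 and 32 CPM in the same order of groups. The groups were fully apart for both genes, with siZIP7_2 between siZIP7_1 and the control. In class I presentation, 11 of 20 were higher and 7 lower (55% and 35%). HLA-B rose by 1.07, while TAPBP, which loads peptides, fell by 1.15. Reads of HLA genes can be split between close relatives, so values of single HLA genes are uncertain.

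Interferon-stimulated genes were higher in 31 of 50 and lower in 12 (62% and 24%). The medians against siNC were -0.49 for siZIP7_1 and 0.01 for siZIP7_2, so as a list these genes lay near the control with siZIP7_2. GBP2, a guanylate-binding protein, was at 3.20, 2.61 and 2.64 CPM with siZIP7_1, 47.4, 36.1 and 47.7 CPM with siNC and 82.9, 75.6 and 80.4 CPM with siZIP7_2. ISG15, a ubiquitin-like protein, rose by 1.22, but IFIT1 by only 0.25 and EPSTI1 fell by 2.08. Of 25 tested genes for sensing double-stranded RNA and for RNA interference, 16 were higher and 6 lower (64% and 24%). DDX58, which encodes the sensor RIG-I, rose by 1.64, whereas EIF2AK2, the RNA-dependent kinase PKR, fell by 0.80.

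NRF2 targets were mostly higher with siZIP7_2 than with siZIP7_1. NRF2 induces enzymes that detoxify aldehydes and quinones and that supply glutathione and NADPH. Of 37 tested targets, 28 were higher and 9 lower (75.7% and 24.3%), with a median of 0.52. The medians against siNC were -0.60 for siZIP7_1 and 0.11 for siZIP7_2, so as a list the targets lay nearer to the control with siZIP7_2. AKR1B1, an aldose reductase, was at 23.3, 21.6 and 23.8 CPM with siZIP7_1, 411, 327 and 390 CPM with siNC and 2637, 1690 and 2276 CPM with siZIP7_2. AKR1C1, a relative that shares much sequence with its neighbours, rose by 8.01. The common marker NQO1 differed by only 0.15, a call lost without the low-count filter (adjusted p = 0.0746, edgeR) and without siZIP7_1 replicate 3 (0.0873), and was below siNC with both siRNAs. The largest differences thus lay in the aldo-keto reductases. In the ferroptosis and glutathione list 12 of 28 were higher and 12 lower (42.9% and 42.9%), near the shares of all genes. The glutamate-cysteine ligase subunit GCLM rose by 1.00 and the lipid peroxidase GPX4 fell by 0.42. Of the ferritin chains that store iron, FTH1 rose by 1.72 and FTL fell by 0.98.

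Hypoxia and glycolysis genes were higher in 29 of 44 and lower in 6 (65.9% and 13.6%), with a median of 0.44. By at least 2-fold, 13 were higher (29.5%, against 16.8% of all genes) and 0 lower (against 14.3%). LDHA, lactate dehydrogenase A, was at 148, 175 and 156 CPM with siZIP7_1, 1068, 1056 and 1111 CPM with siNC and 937, 924 and 941 CPM with siZIP7_2. VEGFA, the vascular growth factor, was at 142, 136 and 137 CPM with siZIP7_1 and 634, 589 and 601 CPM with siZIP7_2, beside 523, 541 and 539 CPM with siNC. NDRG1 rose by 2.99 and the glucose transporter SLC2A1 by 0.39, while ADM fell by 0.50. LDHA and VEGFA lay further from siNC with siZIP7_1 than with siZIP7_2.

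Lysosome genes moved in both directions. Of 67 tested, 38 were lower and 15 higher (56.7% and 22.4%), with a median of -0.22. The shares called (79.1%) and past the 2-fold rule (31.3%) were close to the 78.7% and 31.1% of all genes. MITF, a transcription factor of the family that controls lysosome genes, was at 75.3, 76.1 and 73.8 CPM with siZIP7_1, 24.0, 24.9 and 24.9 CPM with siNC and 12.5, 14.4 and 13.2 CPM with siZIP7_2. Its known target GPNMB fell by 2.63. The cathepsins CTSB, CTSL and CTSS, which are proteases, rose by 1.99, 1.86 and 3.51 against this direction. SQSTM1, the autophagy receptor p62, was at 991, 1017 and 1024 CPM with siZIP7_1 and 3284, 2982 and 3222 CPM with siZIP7_2, both above siNC at 538, 541 and 530 CPM.

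ER and zinc genes stand closest to the known role of ZIP7, and their list medians lay between -0.33 and 0.43. Of 40 tested ER chaperones and folding enzymes, 10 were higher and 19 lower (25% and 47.5%), with a median of -0.18. HSPA5, the main chaperone, rose by 0.57, DNAJB9 by 0.85 and PPIB by 1.47, while HSP90B1 fell by 0.26. In the list of ER-associated degradation 13 of 34 were higher and 13 lower (38.2% and 38.2%), near the shares of all genes. HERPUD1 was at 145, 145 and 157 CPM with siZIP7_1 and 335, 305 and 331 CPM with siZIP7_2, above siNC at 86.4, 84.7 and 85.4 CPM in both. Of 14 tested sensors and factors of the unfolded protein response, 6 were higher and 7 lower (42.9% and 50%), with a median of -0.09. The sensor ERN1 rose by 1.60, whereas the sensor EIF2AK3 fell by 0.33 and CREB3L2, a transcription factor held in the ER membrane, by 1.06. Targets of ATF4 and CHOP did not share a direction, with 22 of 39 higher and 13 lower (56.4% and 33.3%). DDIT4, an inhibitor of mTORC1, rose by 2.24, whereas CHAC1, which degrades glutathione, fell by 1.49, from 132, 130 and 132 CPM to 49.7, 42.4 and 48.3 CPM. Of 53 tested genes of the coats and receptors of ER to Golgi vesicles, 30 were lower and 12 higher (56.6% and 22.6%), and the coatomer gene ARCN1 fell by 1.93.

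Among the zinc importers, 7 of the 11 tested SLC39 genes were higher and 3, SLC39A7 included, were lower (63.6% and 27.3%). SLC39A14, an importer of the cell surface that acute inflammation is known to induce, was at 69.6, 73.0 and 68.4 CPM with siZIP7_1, 209, 213 and 214 CPM with siNC and 284, 281 and 297 CPM with siZIP7_2. SLC39A10 rose by 1.42. Metallothioneins bind spare zinc in the cytosol, and MT1X rose by 1.84 and MT2A by 1.23, from 501, 458 and 501 CPM to 1222, 1042 and 1171 CPM. Over the 14 tested zinc exporters and metallothioneins, 5 were higher and 8 lower (35.7% and 57.1%). SLC30A1, the exporter of the plasma membrane, rose by 0.81 and SLC30A6, a Golgi exporter, fell by 1.40.

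Endothelial, checkpoint and survival genes were also compared. Of 15 tested endothelial-type genes, 11 were higher and 3 lower (73.3% and 20%), with a median of 1.5. PECAM1, an adhesion molecule of endothelium, was at 0.172 CPM or less with siZIP7_1, 2.90, 2.88 and 3.27 CPM with siNC and 8.93, 9.08 and 7.88 CPM with siZIP7_2. FLT1, a receptor for VEGF, fell by 2.21, from 13.4, 12.8 and 13.2 CPM to 2.25, 2.70 and 3.54 CPM, both above siNC. Of 18 tested immune checkpoint genes, 11 were higher and 5 lower (61.1% and 27.8%). PDCD1LG2, the second ligand of PD-1, rose by 2.16 and CD274, the first, by 0.45, while CD47, which restrains phagocytes, fell by 0.36. In the BCL2 family and death receptors, 16 of 27 were higher and 6 lower (59.3% and 22.2%). MCL1, which protects cells from death, rose by 1.00, and BCL2L1, another protector, fell by 0.92, from 882, 852 and 870 CPM to 461, 453 and 462 CPM. PMAIP1, which encodes the death-promoting NOXA, rose by 1.5.

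Cholesterol genes were lower in 18 of 34 and higher in 10 (52.9% and 29.4%), and 17.6% of them passed the 2-fold rule, against 31.1% of all genes. HMGCS1, an early enzyme of the pathway, was at 242, 264 and 255 CPM with siZIP7_1 and 115, 109 and 113 CPM with siZIP7_2, both above siNC at 60.2, 54.0 and 66.2 CPM. ABCA1, which exports cholesterol, rose by 1.41. In the fatty acid list 11 of 30 were higher and 15 lower (36.7% and 50%). FASN, fatty acid synthase, fell by 0.82 and ELOVL7, which elongates fatty acids, fell by 2.41. The plot of all list medians sets these lists side by side.

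**Figure D5:**
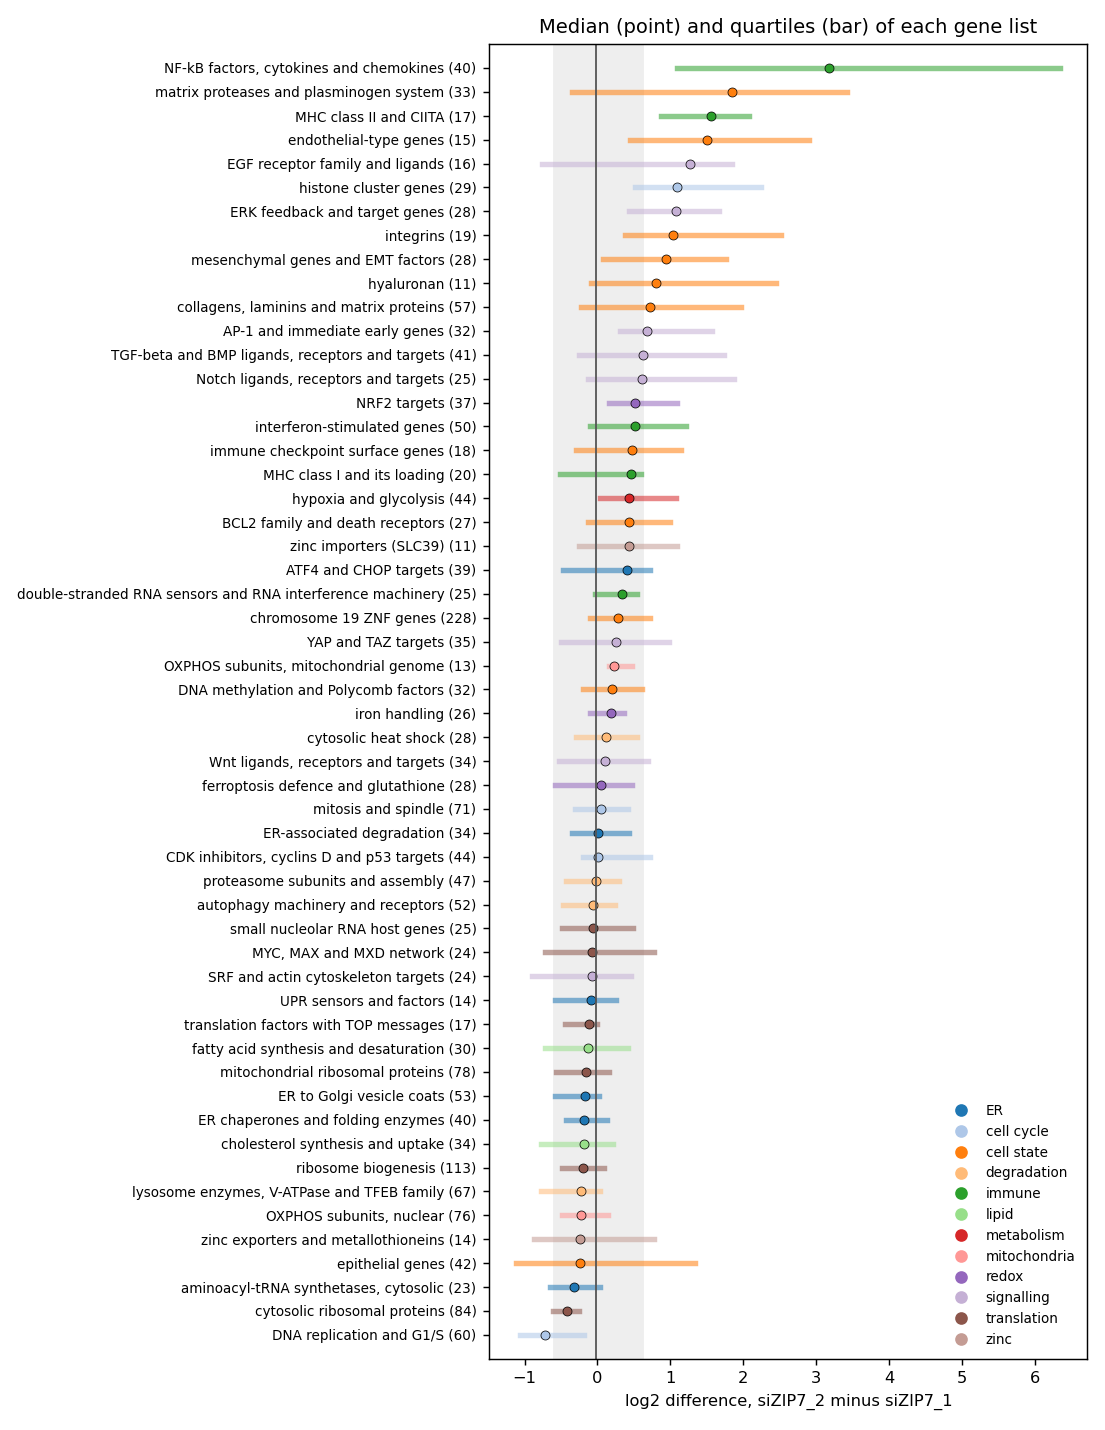
Median log2 difference, siZIP7_2 minus siZIP7_1, of each gene list other than the marker checks (points) with its quartiles (bars), coloured by role and with the number of genes tested in parentheses. The grey band is the range between the quartiles of all genes tested, -0.59 to 0.62. The NF-kB list at 3.17 and the protease list at 1.85 lie furthest to the right and DNA replication at -0.72 furthest to the left.

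Some genes were read with only 1 of the ZIP7 siRNAs. The rule asked for at most 3 counts in each library of one ZIP7 siRNA and at least 1 CPM in each library of the other. By it 72 were read with siZIP7_2 and not siZIP7_1, 49 of them protein-coding, and 10 the other way, 6 of them protein-coding. The rule left siNC out, and some of the 72 were read there, such as F2RL3 at 8.31, 7.69 and 9.40 CPM and KRT79 at 2.03, 1.07 and 1.39 CPM. These numbers depend on the limits, since they were 4 and 0 with the other siRNA at 0 counts and 174 and 29 at 0.5 CPM. PRSS35, a secreted protease-like protein, had at most 3 counts per siZIP7_1 library and was at 90.5, 53.2 and 72.9 CPM with siZIP7_2, at least 707-fold higher. SLC6A12, a transporter of betaine, was at least 258-fold higher, the T cell adaptor gene SH2D2A at least 162-fold and the protease inhibitor gene CST7 at least 120-fold. ALOX5AP, which is needed for leukotriene synthesis, was at least 125-fold higher. KRT79, a keratin, was at least 121-fold higher.

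On the other side, TLL1, a protease that processes procollagen, was at 6.23, 5.91 and 7.44 CPM with siZIP7_1 and had at most 3 counts per siZIP7_2 library, so it was at least 59.2-fold lower with siZIP7_2. The protein-coding genes with the largest falls among genes at 5 CPM or more were SCEL, RASSF9, TLL1, PTPRQ, STXBP6, BANK1, TNFSF18, ALPP, PSG4 and NKX2-1. PTPRQ, a receptor phosphatase of the inner ear, was at 19.9, 15.9 and 17.6 CPM with siZIP7_1 and 0.194, 0.263 and 0.5 CPM with siZIP7_2. BANK1, a B cell scaffold gene, was at 38.3, 37.5 and 38.3 CPM with siZIP7_1, 3.63, 2.84 and 3.60 CPM with siNC and 1.13, 1.02 and 0.961 CPM with siZIP7_2. TNFSF18, a ligand of the TNF family, fell by 5.19, from 69.3, 68.2 and 61.7 CPM. ALPP and PSG4, genes best known from the placenta, fell by 4.90 and 4.73, and both belong to families of close copies. NKX2-1, a factor of lung and thyroid, fell by 4.63. All 10 of these genes were above siNC with siZIP7_1. The noncoding gene PLCE1-AS1 was at 72.9, 68.5 and 67.4 CPM with siZIP7_1 and 0.192 CPM or less in every other library.

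Markers of other cell types were checked because many cytokine genes are also made by leukocytes. The 11 genes chosen as markers of the line were all read, and VIM was the most abundant of them. Of these 11 genes, 5 were higher and 6 lower with siZIP7_2 (45.5% and 54.5%), with a median log2 difference of -0.79. By at least 2-fold, 2 were higher and 4 lower, so 54.5% passed that rule, against 31.1% of all genes. The summed level of the 11 genes was 8659 CPM with siZIP7_1 and 9809 CPM with siZIP7_2, both below the 12177 CPM of siNC. Of 16 leukocyte genes, 4 passed the filter on low counts, of which 3 were higher and 1 lower (75% and 25%), with a median of 2.04. Over all genes 38.1% were higher and 40.6% lower. A gene can pass this filter through the group where it is high, so these counts may partly reflect which genes passed. In every library 7 of the leukocyte genes had at most 3 counts, among them CD2, CD3E and MS4A1. The summed level of the list was 2.82 ± 0.327 CPM with siZIP7_1 and 14.5 ± 1.89 CPM with siZIP7_2. Most of that sum was CD14, a receptor for lipopolysaccharide of monocytes, at 11.9, 8.72 and 9.38 CPM with siZIP7_2. PTPRC, the common leukocyte antigen, was at 0.272, 0.362 and 0.346 CPM with siZIP7_2, below siZIP7_1 at 1.02, 0.790 and 0.816 CPM.

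The study also worked with a renal cancer line, so tubule genes were checked too. Of 10 such genes 3 passed the filter on low counts. All 3 were higher by at least 2-fold, against 16.8% of all genes, with a median of 3.08. Because a gene can pass the filter through the group where it is high, this count may partly reflect which genes passed. The list had a summed level of 5.51 ± 0.752 CPM with siZIP7_1 and 45.3 ± 2.31 CPM with siZIP7_2. PAX8 held most of it, at 3.5, 3.09 and 4.17 CPM and 31.7, 30.4 and 29.6 CPM, and siNC lay between at 16.9, 16.2 and 14.6 CPM. CDH16, PAX2, SLC34A1 and UMOD had at most 3 counts in every library. Of 10 fibroblast genes 5 were tested, 3 of them higher and 2 lower with a median of 0.73, with a summed level of 146 CPM with siZIP7_1 and 238 CPM with siZIP7_2, both above the 80.3 CPM of siNC. COL1A1 was the most abundant, and DCN and POSTN had at most 3 counts in every library. Of 12 luminal breast genes 10 were tested, with a summed level of 736 CPM with siZIP7_1 and 405 CPM with siZIP7_2, above and below the 507 CPM of siNC. KRT8 was the most abundant of them, and by gene 6 of the 10 were higher with siZIP7_2 and 4 lower, with a median of 0.42 that was -0.11 with the stricter filter of 10 counts in each library. ESR1, the oestrogen receptor gene, was at a mean of 0.241 CPM with siZIP7_1 and 0.501 CPM with siZIP7_2, a difference not called by DESeq2 (adjusted p = 0.0675) or without siZIP7_1 replicate 3 (0.0632 by edgeR), and PGR had at most 3 counts in every library.

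The libraries themselves also differed by siRNA. Reads outside annotated genes made up 9.42%, 7.80% and 9.62% of all reads that the counter placed on genes, outside genes or on more than 1 gene with siZIP7_1 and 11%, 11.5% and 9.99% with siZIP7_2. Genes with at least 1 read numbered 24018 ± 474 and 25675 ± 439 (SD, n = 3 each). The ranges of both measures were apart, and an exact permutation test gave p = 0.1 for each, the smallest the design allows. Genes that were higher by 2-fold had a lower median level (2.64 CPM) than those that were lower (8.73 CPM) or than all genes tested (17.3 CPM), and 70.6% of them were protein-coding, against 75% and 79.5%. Of 228 tested ZNF genes of chromosome 19, 122 were higher and 45 lower (53.5% and 19.7%), with a median of 0.28. The part of these library measures in the gene differences was not tested.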

How the data were processed

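Raw read counts per gene, which the authors deposited per library, were the starting values. The submitters' processing notes name Trim Galore 0.4.1, FastQC 0.11.2, STAR, HTSeq 0.6.1 and DESeq2 1.16.1. The genome build, annotation and strand setting are not given in the sources used here. Ensembl IDs were given symbols and positions from the GENCODE 29 annotation of GRCh38, and promoters from RefSeq. The summary lines of the counter were kept out of library sizes. Counts were scaled by TMM, and genes with low counts were dropped by edgeR's filterByExpr. The 9 libraries were fitted together in edgeR 4.0.16 (R 4.3.3) with group as the only term, and siZIP7_2 was tested against siZIP7_1 by the quasi-likelihood test with Benjamini-Hochberg adjustment over all genes tested. The steps were tested on simulated data. DESeq2 1.42.0, other scalings and filters, the 6 siZIP7 libraries alone, a replicate block and leaving out each library were alternatives. Named genes were SLC39A7, the 10 protein-coding genes with the largest called difference in each direction at 5 CPM or more and with under 25% of exons overlapped, and each list's anchors and extremes. The members and lists were chosen with earlier results of these data known. Tables and figures used Python 3.11.15, pandas 2.3.3, SciPy 1.17.1 and matplotlib 3.10.9. A few genes are not reported here.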

Additional observations from a re-analysis of the deposited data

How the results depend on the processing

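The direction and call of SLC39A7 held under every alternative run, and its log2 difference ranged from -0.96 to -0.84 when single libraries were left out. Leaving out single libraries gave 12840 to 13458 called genes, 6212 to 6533 of them higher and 6616 to 6925 lower, and 5280 to 5530 genes past the 2-fold rule, 2863 to 3027 of them higher and 2409 to 2503 lower. DESeq2 called 12630 genes. The excess of lower over higher calls (6800 and 6387) turned round with other scalings, to 6278 lower and 6352 higher with DESeq2, 6511 and 6621 with its size factors in edgeR and 6190 and 7006 with upper-quartile factors. With at least 10 counts asked for in every library, 3396 genes passed the 2-fold rule, 1715 of them higher, out of 13820 tested, a filter that tests fewer genes. Genes read with only 1 of the ZIP7 siRNAs numbered 4 for siZIP7_2 and 0 for siZIP7_1 when the other had to be at 0 counts. At 0.5 CPM in place of 1 CPM they numbered 174 and 29. RELA changed sign without a call, to 0.0023 with the stricter count filter and 0.032 with upper-quartile factors. The calls of VIM, NQO1, MCM5 and ESR1 were lost under at least 1 alternative, and the cause was not tested. List medians changed sign in 11 lists, zinc exporters (-0.24) and luminal genes (0.42) among them, and the other such medians lay within 0.1 of 0.

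Correlations of the deviations from the group means ran from -0.17 to 0.16 for same-numbered libraries of different groups. For libraries with different numbers they ran from -0.31 to 0.24. Same-numbered libraries thus did not stand out, but with 3 libraries per group these values cannot exclude pairing. With the replicate number as a block 13242 genes were called and 5215 passed the 2-fold rule, but the call of VIM was lost. Precision is limited for genes near the floor of 3 counts per library, where fitted differences such as those of CSF3 and CXCL5 rest on few counts and are no bounds.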
